A study of Gallus gallus with 8 samples.

Results

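The Notch pathway genes described here are the loci of the authors' FPKM table that carry 1 of 10 gene names: the receptors NOTCH1 and NOTCH2, the ligands JAG1, JAG2 and DLL1, the target genes HES1, HES5, HEY1 and HEY2, and RBPJ. Of the 10 names, 8 matched exactly 1 locus each, out of 16906 loci in the table, whereas HES1 and HEY2 matched no locus and were not analysed under those names. HES5 was chosen by its fall in FPKM from the equatorial epithelium to the cortical fibers, so that fall is given as a description. Counts and medians over the group that use HES5 are also given without it, or its part in them is stated. The other names were put together as parts of 1 pathway with earlier results of these data known.

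The data come from lenses of embryonic day 13 chickens (Gallus gallus), which the authors microdissected into the central epithelium (EC), the equatorial epithelium (EQ), the cortical fibers (FP) and the central fibers (FC). All 4 regions are normal tissue with no treatment named in the labels, and lens cells pass through them in this order as they differentiate. Each region was sequenced as 2 libraries, each from pooled microdissections of 100 lenses, giving 8 libraries in all, and libraries of different regions may share lenses. The table gives 1 FPKM per locus and region, a fragment number divided by transcript length and library size, which pools the 2 libraries. A 95% interval from cuffdiff stands beside it and is the only error used here. The table holds no read counts, so the depth behind a single value could not be read from it.

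Notch receptors sit in the plasma membrane and are activated by ligands of the Jagged and Delta families on a touching cell. Proteases then release the intracellular part of the receptor, which enters the nucleus, joins the DNA-binding factor RBPJ and co-activators of the Mastermind (MAML) family, and turns on genes of the HES and HEY families, which encode transcriptional repressors. In the vertebrate lens, mouse studies have tied JAG1 and RBPJ to the balance between proliferating epithelial cells and cells that enter fiber differentiation. A ligand on one cell acts on a receptor of its neighbor, whereas a ligand and a receptor in the same cell can inhibit each other.

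Of the 8 loci, 5 had their highest FPKM in EQ, namely NOTCH1, NOTCH2, HES5, HEY1 and RBPJ, beside 35.8% of the 12362 loci that reached an FPKM of 1 in some region. The EQ maximum of HES5 is favored by how it was picked, and without it the count was 4 of 7. Both counts include JAG2, which was under an FPKM of 1 in every region and so is not among the 12362 loci. JAG2 and DLL1 were highest in EC, and JAG1 was highest in FP. The plot of FPKM by region shows receptors and target genes low in both fiber regions, and JAG1 with its low value in EC.

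**Figure D1:**
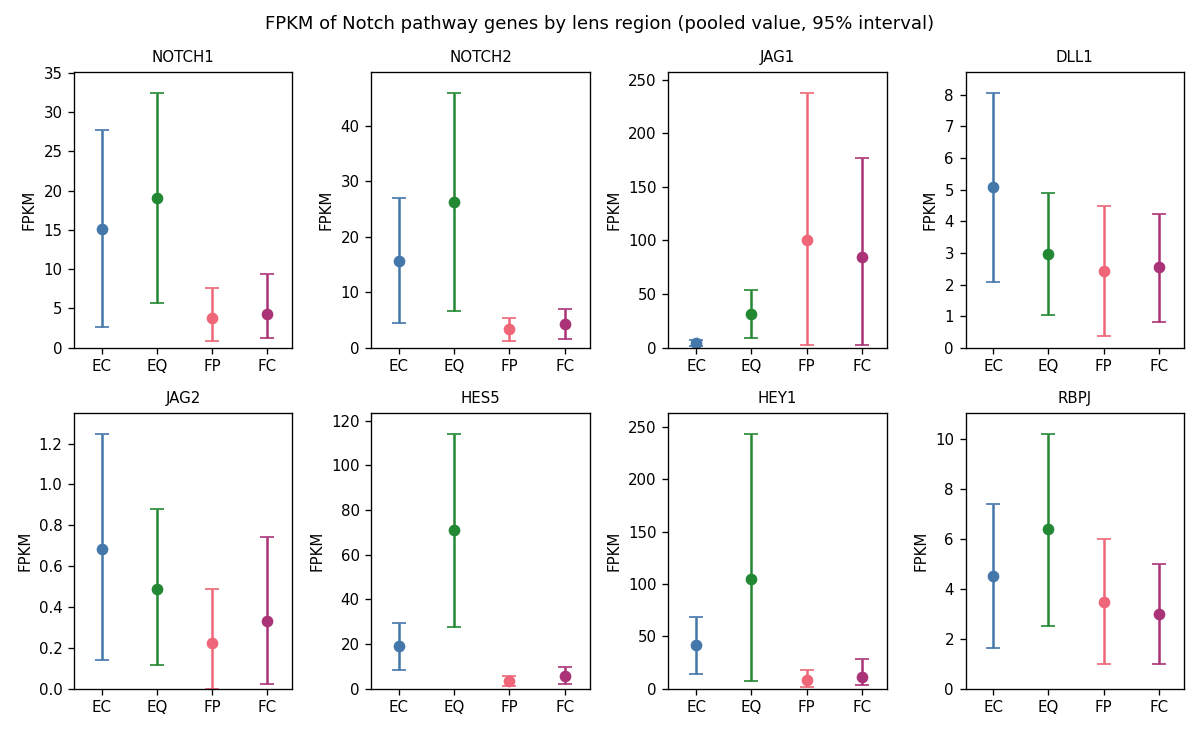
FPKM (vertical axis, from 0, a separate scale for each gene) of the 8 Notch pathway loci in EC, EQ, FP and FC. Points are the authors' pooled values over 2 libraries and bars their 95% intervals; JAG1 goes from 4.74 in EC to 100.2 in FP, whereas HES5 goes from 70.9 in EQ to 3.50 in FP.

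A difference between 2 regions is called here when their 95% intervals do not overlap, a strict rule that can be applied to every locus of the table. From EC to EQ, JAG1 alone of the 8 loci was called, and it was higher in EQ. Over all 16031 loci with an FPKM above 0 in either region, 0.53% were called higher and 0.499% lower in EQ. From EQ to FP, NOTCH2 and HES5 were called lower and no locus higher, beside 1.82% of all loci called lower and 1.73% called higher. Of these calls, that of HES5 restates how this gene was picked.

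For more distant regions, HES5 was the single locus of the 8 called lower in FP than in EC, and the single one called lower in FC than in EQ, and each of these pairs shares a region value with the step it was picked on. The share of all loci was 2.59% lower and 2.02% higher for the former, and 1.44% lower and 1.59% higher for the latter. None of the 8 was called between EC and FC, where 2.3% of all loci were lower and 1.95% higher in FC. None was called between FP and FC either, where 0.103% of loci were lower and 0.0706% higher in FC.

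The regions carry a shared shift that sets the scale for these differences. The median log2 ratio of the 9068 loci that reached an FPKM of 1 in each region was 0.27 at the step into EQ, -0.30 at the step into FP and 0.10 at the step into FC. At the same steps the median of the 8 loci was 0.62, -1.72 and 0.26. That of the 7 loci other than HES5 was 0.50, -1.13 and 0.14. Unlike the 9068 loci, both sets include JAG2, which was under an FPKM of 1 in every region. Its own log2 ratio at the step into FP, -1.13, is the median of the 7. In such bulk tissue, fewer cells that carry a transcript and less of it per cell cannot be told apart.

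**Figure D2:**
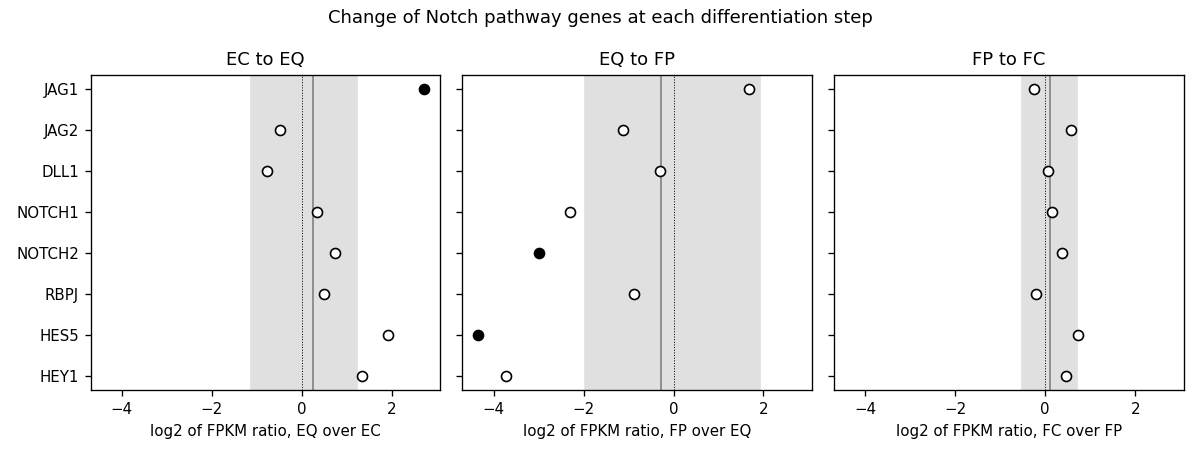
Log2 of the FPKM ratio (horizontal axis) of each Notch pathway locus, with a panel for the step into EQ, into FP and into FC. Filled points mark intervals that do not overlap, the gray band spans the 5th to the 95th percentile and the gray line the median of loci that reach an FPKM of 1 in both; JAG1, HES5 and HEY1 lie right of the band in the first panel, HES5, HEY1, NOTCH1 and NOTCH2 lie left of it in the second, and HES5, at 0.72, lies just right of it in the third.

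NOTCH1 and NOTCH2 are the receptor genes of the group, listed on Galgal4 at chromosome 17, 7809849 to 7843937, and at chromosome 8, 4145808 to 4225658. The FPKM of NOTCH1 (95% interval) was 15.1 (2.65 to 27.7) for EC and 19.1 (5.76 to 32.4) for EQ, against 3.85 (0.844 to 7.58) for FP and 4.24 (1.24 to 9.45) for FC. NOTCH2 was at 15.7 (4.42 to 27.0) for EC and 26.3 (6.54 to 46.0) for EQ, against 3.30 (1.22 to 5.37) for FP and 4.28 (1.53 to 7.02) for FC. Both receptors were thus higher in both epithelial regions than in both fiber regions, by point value, while the intervals of NOTCH1 overlapped between every pair of regions.

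From EQ to FP the log2 fold change was -2.31 for NOTCH1 and -3.00 for NOTCH2. As a second measure of error, the interval of the difference was computed from the bounds of both values by squaring and adding their distances (MOVER). For NOTCH2 the FPKM fell by 23.0 from EQ to FP, with a 95% interval from -42.8 to -3.14, and its log2 fold change had the 159th largest fall of 11005 loci. For NOTCH1 the difference was -15.2, with an interval from -28.9 to -1.40, and its ratio ranked 468th. The call of NOTCH2 was close to the limit, since the lower bound in EQ of 6.54 stood against an upper bound in FP of 5.37, and with the regions rescaled by their median ratio these became 5.75 and 5.82, which overlap.

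From EC to EQ the receptors differed little, with log2 fold changes of 0.34 for NOTCH1 and 0.74 for NOTCH2 and intervals of the difference from -14.3 to 22.3 and from -12.2 to 33.3. The 2 receptors stood close to each other in every region. NOTCH2 made up 51.0% of their summed FPKM for EC and 57.9% for EQ, against 46.2% for FP and 50.2% for FC.

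JAG1, a ligand of the Jagged (Serrate) family, lies on chromosome 3 from 12843172 to 12878172. Unlike the receptors it was higher in the fibers than in the epithelium by point value, with an FPKM of 4.74 (1.83 to 7.67) for EC and 31.4 (9.40 to 53.4) for EQ, against 100.2 (2.15 to 237.7) for FP and 84.9 (2.11 to 177.3) for FC. JAG1 rose 6.62-fold from EC to EQ, a log2 fold change of 2.73, and this was the 70th largest rise of 11173 loci. The difference was 26.7 FPKM with a 95% interval from 4.46 to 48.9, and the EC and EQ intervals stayed apart under both alternative scalings.

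The values in the fibers were the highest of JAG1, at 21.1 times the EC value in FP and 17.9 times in FC. They were also the least certain, and the interval of the difference from EC reached from -2.63 to 233.0 for FP and from -2.68 to 172.7 for FC. A separate locus, ENSGALG00000026351, is listed over the same span as JAG1 with an FPKM between 0.773 and 3.73, and its part in the JAG1 estimate was not tested.

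DLL1, a ligand of the Delta family, lies on chromosome 3 from 40170699 to 40178161. Its FPKM was 5.09 (2.08 to 8.06) for EC and 2.98 (1.04 to 4.88) for EQ, against 2.42 (0.384 to 4.50) for FP and 2.54 (0.823 to 4.22) for FC. All 4 intervals overlapped, and the difference from EC to FC of -2.55 had an interval from -5.99 to 0.894.

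JAG2, the other Jagged ligand, lies on chromosome 5 from 52023887 to 52086423 and was low throughout. It had an FPKM of 0.683 (0.139 to 1.25) for EC and 0.489 (0.116 to 0.879) for EQ, against 0.223 (0 to 0.486) for FP and 0.333 (0.0231 to 0.740) for FC, and no pair of its intervals was apart. The make-up of 4 ligand transcripts thus differed along the lens by point value. Of the summed FPKM of JAG1, JAG2, DLL1 and DLL4, JAG1 took 41.7% for EC and 87.7% for EQ, against 96.9% for FP and 95.9% for FC. DLL1 took 44.8%, 8.32%, 2.34% and 2.87%. DNER, a described Notch ligand given below, was left out of this sum, so the shares hold for these 4 loci only. Its FPKM exceeded that of JAG1 in each region, at 30.3, 179.0, 131.3 and 164.1 in their order. DLL4, a Delta ligand best known from blood vessels, was at 0.929 or less in each region, and 4 vessel markers (KDR, CDH5, TEK and TIE1) were at 2.35 or less.

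Set against the summed receptors, JAG1 went from less to more. The sum of NOTCH1 and NOTCH2 was 30.8 FPKM for EC and 45.4 for EQ, against 7.14 for FP and 8.52 for FC, and JAG1 divided by this sum gave 0.154, 0.692, 14.0 and 9.96. These ratios are between point values and carry no error of their own. The JAG1 intervals in the fibers, with lower bounds of 2.15 in FP and 2.11 in FC, reached below these receptor sums.

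**Figure D3:**
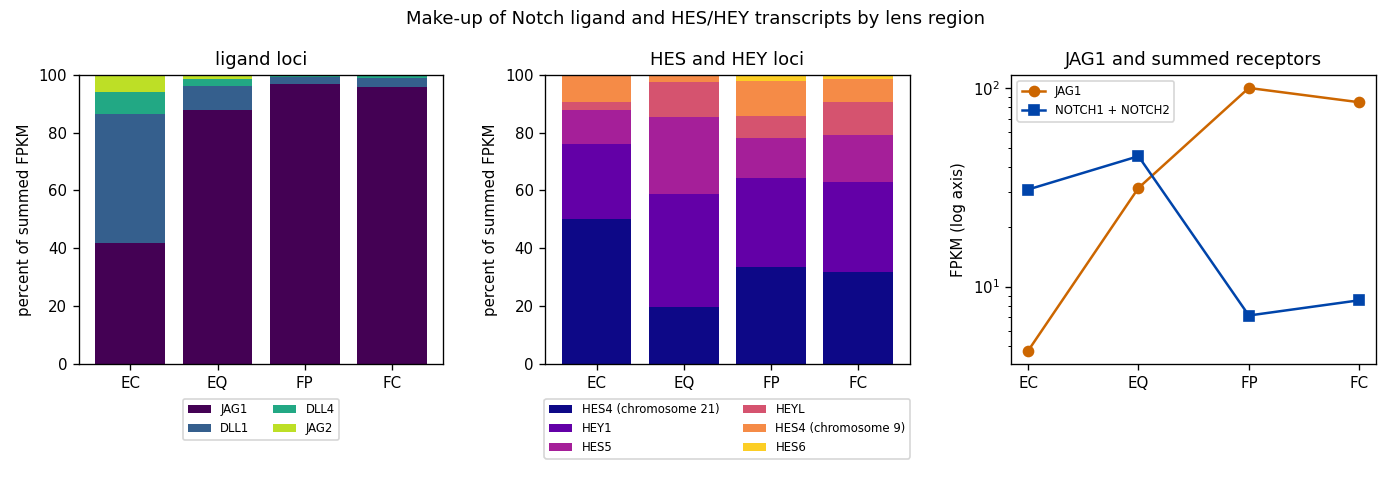
Left and middle, the share of each locus in the summed FPKM (percent) of 4 ligand loci and of 6 HES and HEY loci in EC, EQ, FP and FC; right, FPKM on a log axis of JAG1 (circles) and of NOTCH1 plus NOTCH2 (squares). JAG1 takes 41.7% of the FPKM of these 4 ligand loci, which leave out DNER, in EC and 96.9% in FP. By point value the JAG1 line crosses that of the receptors between EQ and FP.

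RBPJ, the DNA-binding factor through which Notch receptors act on their targets, lies on chromosome 4 from 72840333 to 72980021. Its FPKM was 4.51 (1.63 to 7.38) for EC and 6.38 (2.49 to 10.2) for EQ, against 3.46 (0.976 to 5.97) for FP and 2.99 (0.976 to 4.99) for FC. The regions did not separate, and the difference from EQ to FC of -3.38 had an interval from -7.70 to 0.982. Its log2 fold change from EQ to FP of -0.88 was smaller than that of either receptor.

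HES5, a short-lived repressor and a direct Notch target in many tissues, lies on chromosome 21 from 1432927 to 1434563. The FPKM was 18.9 (8.21 to 29.6) for EC and 70.9 (27.7 to 114.2) for EQ, against 3.50 (1.24 to 5.73) for FP and 5.76 (2.02 to 9.44) for FC. The EQ value stood above both fiber values with no overlap, and the EC interval lay above that of FP but overlapped that of FC between 8.21 and 9.44. The fall from EQ to FP, for which it was picked, was 20.3-fold.

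Outside the step it was chosen on, HES5 was 3.75-fold higher in EQ than in EC, a log2 fold change of 1.91. The EQ value is shared with the step used for choosing the gene. The intervals overlapped between 27.7 and 29.6, while the MOVER interval of the difference, 7.44 to 96.6, left out 0. Between EC and FC, a pair that uses neither value of the choice, the log2 fold change was -1.72. The difference of -13.2 had an interval from -24.4 to -1.83. FC lay close to FP at most loci, with log2 ratios from -0.51 to 0.70 between the 5th and 95th percentile. A low FC value is thus favored by the choice as well.

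HEY1, a HES-related repressor that pairs with other basic helix-loop-helix proteins, lies on chromosome 2 from 120537492 to 120541690. Its FPKM was 41.5 (14.4 to 68.5) for EC and 104.5 (7.18 to 243.8) for EQ, against 7.84 (1.76 to 17.4) for FP and 10.8 (3.06 to 27.8) for FC. HEY1 thus followed the order of HES5, with EQ first, EC next and both fiber regions last, at higher FPKM in each region. The intervals overlapped for every pair.

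For HEY1 the log2 ratio was 1.33 at the step into EQ and -3.74 at that into FP, the latter the 41st largest fall of 11005 loci. The single pair for which the MOVER interval of HEY1 left out 0 was EC and FP, with a difference of -33.6 and an interval from -61.3 to -4.89. The difference from EQ to FP of -96.7 had an interval from -236.1 to 1.13, so this step was not distinguishable from 0 by either rule.

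In likeness of profile, HEY1 came second to HES5 among 10457 other loci that carry 1 symbol and reach an FPKM of 1 in some region. The measure was the root mean square difference over the 4 regions of log2(FPKM + 1) less its mean, the regions share their libraries with every gene, and the EQ and FP values on which HES5 was picked are part of it, so the ranks are a description. It was 0.161 for LYPD1, 0.202 for HEY1, 0.231 for RNaseP_nuc, 0.232 for COL24A1, a fibrillar collagen chain, and 0.26 for SOUL, a heme-binding protein. LYPD1 had an FPKM of 4.99 for EC and 17.9 for EQ, against 0.28 for FP and 1.40 for FC. NOTCH2 ranked 44th and NOTCH1 183rd by this measure, RBPJ 2372nd, DLL1 4785th and JAG1 10154th.

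By the definition of the study's methods, the FPKM of FP plus FC is divided by that of EC plus EQ, and a ratio of 2 in either direction marks a preference, with no error attached. Of the 8 loci, 5 were preferred to the epithelium: HES5 (9.71-fold), HEY1 (7.83-fold), NOTCH2 (5.55-fold), NOTCH1 (4.23-fold) and JAG2 (2.11-fold). JAG2, under an FPKM of 1 in every region, passed narrowly, at a log2 ratio of -1.08. Under median ratio scaling (-0.99) and scaling by the sum without the 3 highest loci (-0.87) it missed the threshold. JAG1 was preferred to the fibers, at 5.12-fold. DLL1, at 1.63-fold, and RBPJ, at 1.69-fold, were higher in the epithelium but under the threshold. Over all 16197 loci with an FPKM above 0, 25% passed toward the epithelium and 15.8% toward the fibers, and HES5 enters this count through the values it was picked on.

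A wider list of 67 further gene names of the pathway gave 53 loci, and 17 names matched none. In EQ, 2 of the 53 loci (3.77%) were called higher than in EC, beside 0.53% of all loci, and in FP 3 (5.66%) were called lower than in EQ, beside 1.82%. From EC to FP and from EQ to FC 3 (5.66%) were called lower in each, beside 2.59% and 1.44%, from EC to FC 4 (7.55%) were called lower, beside 2.3%, and between FP and FC 0 were called. In any of the 6 pairs and either direction, 6 of the 53 loci (11.3%) were called, beside 7.77% of all 16197 loci, and the counts by role are of this kind. Of those 16197 loci, 12362 reached an FPKM of 1 in some region. The shares of all loci were not computed over these alone, so they are not matched to the list in expression. The median log2 ratio of the list was 0.04 at the step into EQ and -0.45 at the step into FP, against 0.27 and -0.30 over the 9068 loci. The list, unlike those loci, was not filtered at an FPKM of 1.

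**Figure D4:**
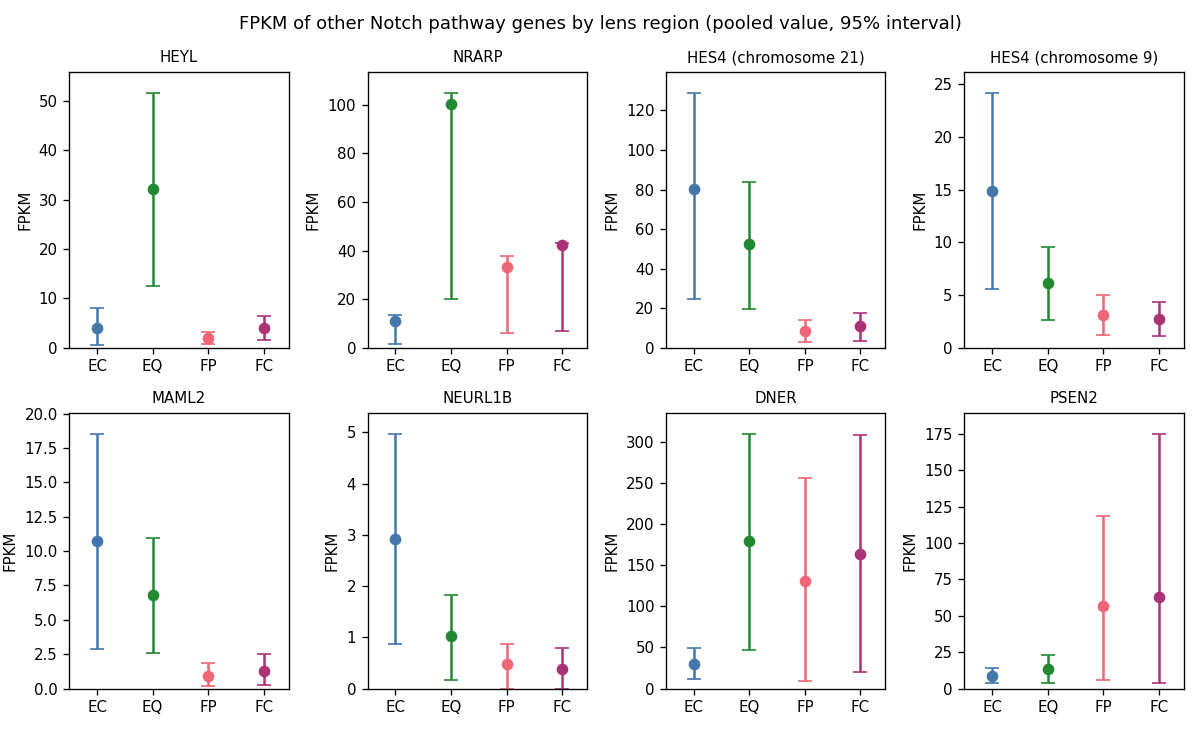
FPKM (vertical axis, from 0, a separate scale for each locus) of 8 loci of the wider Notch list in EC, EQ, FP and FC, as the authors' pooled values over 2 libraries with 95% intervals. HEYL and NRARP are highest in EQ, at 32.1 and 100.6, and HEYL is lowest in FP whereas NRARP is lowest in EC. Both HES4 loci are highest in EC, and the fiber intervals of PSEN2 are wide.

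Among the other HES and HEY genes, 3 of 6 names were found, at 4 loci. HEYL, the third member of the HEY family, had an FPKM of 3.95 (0.492 to 7.99) for EC and 32.1 (12.5 to 51.7) for EQ, against 1.96 (0.722 to 3.22) for FP and 3.99 (1.52 to 6.45) for FC. The EQ interval lay above all others. HEYL rose 8.11-fold from EC to EQ, the 46th largest rise of 11173 loci, and fell 16.3-fold from EQ to FP, the 23rd largest fall of 11005.

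The name HES4 was carried by 2 loci, and neither shared the EQ maximum. The locus on chromosome 21, 2803580 to 2805434, was at an FPKM of 80.4 (24.5 to 129.0) for EC and 52.4 (19.6 to 83.7) for EQ, against 8.57 (2.82 to 14.2) for FP and 11.2 (3.24 to 17.6) for FC. Both of its epithelial intervals lay above both of its fiber intervals, although the EQ and FC intervals overlapped under both alternative scalings. RefSeq (assembly GRCg7b) lists HAIRY1 and HES1 among the synonyms of its HES4 gene, which is also on chromosome 21.

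The other HES4 locus, on chromosome 9, 12410466 to 12423754, was at an FPKM of 14.9 (5.58 to 24.2) for EC and 6.11 (2.60 to 9.58) for EQ, against 3.10 (1.21 to 4.97) for FP and 2.70 (1.07 to 4.32) for FC. It was lower at each later region by point value, and the EC interval lay above those of FP and FC, the former not under the scaling by the sum without the 3 highest loci. In RefSeq the gene between CPN2 and OPA1 on chromosome 9 is HES1, and this locus is the only one of the table between genes of those names. Which HES gene its reads came from was not tested further. Of the summed FPKM of the 6 HES and HEY loci, the chromosome 21 HES4 locus took 50.2% in EC and 19.6% in EQ, whereas HES5 took 11.8% and 26.6%, HEY1 25.9% and 39.2%, and HEYL 2.47% and 12.0%, and the EQ shares include the EQ value on which HES5 was picked.

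Among receptor inhibitors and turnover factors, 1 of 8 loci was called in any pair. NRARP, a small ankyrin repeat protein that Notch induces and that limits Notch signaling, had an FPKM of 10.9 (1.38 to 13.3) for EC and 100.6 (20.2 to 105.0) for EQ, against 33.3 (5.96 to 37.6) for FP and 42.2 (6.88 to 43.1) for FC. It rose 9.24-fold from EC to EQ, the 30th largest rise of 11173 loci, and its values lay near the upper end of their intervals, which reach far down. In the fibers it stood at 3.06 times the EC value in FP and 3.88 times in FC, with overlapping intervals. By contrast, HEY1 and HES5, the latter picked for a low FP value, had fiber values below those of EC. HEYL was below its EC value of 3.95 in FP, at 1.96, but not in FC, at 3.99. DTX4, a Deltex ubiquitin ligase, was at 22.0, 37.4, 66.4 and 65.0 in the order of the regions, with all intervals overlapping.

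Among co-activators, 1 of 8 loci was called. MAML2, which encodes a Mastermind co-activator of the RBPJ complex, had an FPKM of 10.7 (2.91 to 18.6) for EC and 6.80 (2.61 to 11.0) for EQ, against 0.947 (0.186 to 1.83) for FP and 1.28 (0.282 to 2.51) for FC. Each epithelial interval lay above each fiber interval, though for EQ and FC not under either alternative scaling. The step from EQ to FP had a log2 ratio of -2.84. MAML1 and MAML3 were not called, with log2 ratios of fiber to epithelium sums of -0.35 and -1.38. KAT2A, an acetyltransferase, was the highest of the role at 25.8 in FC.

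Of 4 loci for ligand ubiquitin ligases, which prepare ligands for signaling, 1 was called. NEURL1B had an FPKM of 2.93 (0.873 to 4.98) for EC and 1.02 (0.175 to 1.83) for EQ, against 0.469 (0 to 0.873) for FP and 0.386 (0 to 0.786) for FC, and was called lower in FC than in EC. MIB1, the highest of this role, was at 5.99, 8.77, 5.79 and 5.86 in the order of the regions, with overlapping intervals.

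No locus was called among 4 further ligands, 5 glycosyltransferases, 8 protease loci, 9 co-repressor loci and 3 proneural factors. DNER, a membrane protein with EGF repeats described as a Notch ligand in mouse, was the highest of the added ligands, with an FPKM of 30.3 (11.2 to 49.4) for EC and 179.0 (47.3 to 310.3) for EQ, against 131.3 (8.63 to 255.9) for FP and 164.1 (20.7 to 308.0) for FC. Its EC and EQ intervals overlapped, while the MOVER interval of the difference, 15.7 to 281.3, left out 0. Like JAG1, it had its lowest value in EC.

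PSEN2, a presenilin of the gamma-secretase that cuts activated receptors, was at 8.80 (3.71 to 13.9) for EC and 13.3 (3.90 to 23.1) for EQ, against 56.9 (5.55 to 118.3) for FP and 62.6 (4.04 to 175.2) for FC. Its fiber values were the highest by point value but their intervals reached below the EC value. LFNG, the Fringe enzyme that alters how receptors respond to each ligand class, was at 8.47, 19.4, 12.2 and 17.0 in the order of the regions, and CTBP1, a co-repressor, at 26.6, 53.8, 30.2 and 31.4. The proneural factor ATOH7, of the kind that HES proteins repress in neural tissue, was at 3.88, 0.419, 1.45 and 3.11.

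The region labels were set against markers. Of the lens fiber genes, BFSP1, a beaded filament protein, was at 77.9 for EC and 158.5 for EQ, against 12162 for FP and 14305 for FC. HSF4 was at 0.704, 0.848, 73.8 and 92.1, and MAF at 40.6, 49.7, 110.0 and 101.3 in the order of the regions. CRYAA, the other of the 4 fiber genes found (of 8 names), was highest in EQ, at 14933, 58291, 27994 and 33340. Of the lens epithelium genes (3 of 4 names found, PAX6 matched no locus), FOXE3 was listed at 0.735 or less in every region. CDH1 was at 2.82 or less, and CRYAB, a crystallin also found in fibers, between 6317 and 18282. None of these was 2-fold higher in both epithelial regions than in both fiber regions, so they do not set the epithelium apart. Markers of other cells summed to 13.9 or less for mesenchyme (5 of 6 names found), 5.79 or less for pigment epithelium (5 of 5) and 3.48 or less for vessels (4 of 5). Retina and neuron genes (7 of 7 names found) summed to 18.4 and 12.3 in EC and EQ and to 77.4 and 95.8 in FP and FC, most of the latter TUBB3, so that the sum was higher in the fibers, as JAG1 was, but not higher in EQ than in EC. Muscle genes (2 of 3) summed to 1.86 and 1.69 in the epithelial regions and to 6.46 and 6.72 in the fiber regions, most of the latter DES. White blood cell genes (4 of 4) summed to 26.3 in EQ, 24.8 of it CD74, and to 12.7 or less elsewhere. The other 3 stayed under 1 in every region, with PTPRC at 0.439 in EC and 0.496 in EQ. CSF1R (0.952 and 0.730) and SPI1 (0.637 and 0.210) were lower in EQ than in EC. Like CD74, HES5, HEY1 and HEYL were highest in EQ. The part of these cells was not tested. Red blood cell genes (5 of 10) summed to 758.9 for EC and 127.6 for EQ, against 164.2 for FP and 248.5 for FC, and their part in the EC values was not tested.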

How the data were processed

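Messenger RNA of 8 chicken lens libraries, 2 for each of 4 regions, was sequenced by the authors as short directional single reads. They removed adaptors, mapped reads with TopHat to Galgal4 with Ensembl gene models, and ran Cufflinks and Cuffdiff (2.1.1 per the labels). The deposited FPKM values are those of the authors, scaled between libraries by Cuffdiff and pooled over both libraries of a region, with bounds of a 95% interval. A further deposited table holds the authors' own fold changes, p-values and q-values for 6 pairs of regions and was not used. Values per library were not analysed here (0 per-sample columns left out), so no test over libraries, standard deviation or p-value was computed, and the table holds no read counts from which a depth per value could be read.

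Loci were matched by gene name. A pair of regions was called where the 95% intervals did not overlap and each FPKM lay inside its own interval, over loci with an FPKM above 0 in either region. Intervals of differences were combined from the bounds by squaring and adding (MOVER), which treats the 2 regions as independent. Fold changes are ratios of FPKM with nothing added, and ranks are over loci above 0 in both regions and at 1 or more in either. Coordinates are those of the deposited table, and neighboring genes were read from RefSeq for GRCg7b. The members, the wider list, the markers and the rule for genes given by name (all members, wider list genes called at a neighboring step, the highest of each role, and the 5 profiles nearest to HES5) were chosen with earlier results of these data known. NEURL1B, MAML1, MAML3, DTX4, KDM5A, SPEN, FBXW7, ATOH7, DLL4 and LYPD1 values beyond that rule were picked after they were seen. The call rules were tested on simulated data with 200 changed loci. The simulated errors were capped, and a minimum of recovered changes was required only at intervals narrower than those of the data. The test thus does not show how often a change is found at loci with wide intervals. Alternatives covered the error rule, scaling, filters, loci and values added before logs. Analyses used Python 3.11.15, numpy 2.4.6, pandas 2.3.3 and matplotlib 3.10.9.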

Additional observations from a re-analysis of the deposited data

How the results depend on the processing

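The counts of calls depended mainly on the error rule. With MOVER intervals in place of intervals that do not overlap, the 8 loci gave 2 calls instead of 1 from EC to EQ. They gave 3 instead of 2 from EQ to FP, and 3 instead of 1 from EC to FP and from EQ to FC. From EC to FC they gave 1 instead of 0. Beside these counts, 2.92%, 8.53%, 9.8%, 7.96% and 9.35% of all loci were called, in the same order of pairs. With a ratio of 2 or more the 8 loci gave 3 from EC to EQ, all higher in EQ, and 6 instead of 2 from EQ to FP. From EC to FP they gave 7, from EQ to FC 6 and from EC to FC 7. The shares of all loci were 25.1%, 43.3%, 45.4%, 42.8% and 46% in this order. In each pair named after EC to EQ, 1 call, that of JAG1, was higher in the later region and the others were lower. JAG2, under an FPKM of 1 in every region, was among the calls from EQ to FP, EC to FP and EC to FC. Under median ratio scaling and under scaling by the sum without the 3 highest loci, the EQ to FP count was 1, since the NOTCH2 intervals then overlapped. Leaving out HES5, an alternative chosen after seeing the data, gave 1 from EQ to FP and 0 from EC to FP and from EQ to FC. These counts are for intervals that do not overlap. By MOVER, HES5 was among the calls in each pair named, and the only one from EC to FC. The others were JAG1 from EC to EQ, and NOTCH2 and HEY1 from EC to FP. From EQ to FP and from EQ to FC they were NOTCH1 and NOTCH2. By a ratio of 2 or more, HES5 was again among the calls in each pair named. No count without HES5 is given for either rule. For the wider list, a ratio of 2 or more gave 13, 19, 4, 23, 24 and 22 calls from EC to EQ, EQ to FP, FP to FC, EC to FP, EQ to FC and EC to FC, against 2, 3, 0, 3, 3 and 4, and 17.3% of all loci passed that ratio from FP to FC. MOVER intervals gave 6 from EC to FP, and both scalings gave 1 from EQ to FC. The filter at an FPKM of 1 and leaving out loci of several names changed no count of either list by over 1.5 times. Of 144 log2 values of the 8 genes (4 pairs of regions and the sums) under other scalings or with 1 or 0.1 added, 140 kept their sign, and the 4 others were those of DLL1 from EQ to FP and from FP to FC under both scalings, at 0.0033, 0.0473, -0.0338 and -0.0651. No paired analysis was possible because the columns used pool both libraries of a region, and for the same reason no library was left out in turn.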

Other observations

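RBPJL, a paralog of RBPJ known from pancreatic acinar cells in mouse, was looked up after the values of RBPJ were seen. Its locus (chromosome 20, 5492223 to 5512785) was listed with FPKM values of 0.51 (0 to 1.05) for EC and 0.35 (0 to 0.823) for EQ, against 1.62 (0.299 to 2.92) for FP and 2.73 (0.898 to 4.49) for FC. The EQ and FC intervals of RBPJL did not overlap, with a log2 fold change of 2.96 from EQ to FC. Over all loci, 1.59% were called higher in FC than in EQ. No other pair of regions was called for RBPJL. By point value RBPJ had its highest value in EQ and its lowest in FC, but its intervals overlapped for every pair. The sum of fiber FPKM was at least 2-fold above the epithelial sum for 5 of the 53 loci of the wider list, beside 15.8% of all loci. These were PSEN2 (5.39-fold), KDM5A (2.99-fold), DTX4 (2.21-fold), SPEN (2.19-fold) and FBXW7 (2.15-fold). None of them had intervals apart in any pair of regions. Toward the epithelium 13 of the 53 loci passed that ratio, beside 25% of all loci.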
